A study of Mus musculus with 6 samples.

Results

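Nobiletin was compared with vehicle in the livers of mice on a high-fat diet in the early light phase. The comparison rests on 2 of the 6 arrays in the series, and each of these arrays was hybridised with liver RNA pooled from 4 mice. The mice were C57BL/6J animals aged 18 weeks, fed without restriction and kept in a cycle of 12 h light to 12 h dark. Both pools came from mice on the high-fat diet: over 10 weeks, 1 group was dosed by mouth with vehicle (HFD) and the other with nobiletin (NOB), at 200 mg/kg on alternate days. The livers are from zeitgeber time (ZT) 2, which is 2 h after lights on. The other 4 arrays hold the same arms at ZT14, 2 h after lights off, and pools of mice on regulatory chow (RC) with vehicle at both times, and they are used here for levels beside the comparison. Their sex is not stated in the labels. With 1 pool and 1 array a side there was no replicate, so each difference is a value without a test and says nothing of the spread between mice.

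Nobiletin is a flavone of citrus peel that carries several methoxy groups. It is known as an agonist of the retinoic acid receptor-related orphan receptors (ROR), which drive transcription of the clock activator Arntl and compete with the REV-ERB repressors for the same DNA elements. In the liver the clock sets daily rhythms of lipid, sugar, bile acid and drug metabolism, and a high-fat diet is known to blunt these rhythms and to bring fat droplets, inflammation and matrix deposition. Early light is the start of the resting phase of the mouse, when clock activators run high in liver and the PER repressors run low.

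All values below are normalized probe intensities on the log2 scale, called levels, and a difference is the level under nobiletin minus the level under vehicle at ZT2 unless another time is named. Of 45281 probes, 15091 were detected at a detection p under 0.01 on at least 1 of the 2 arrays, and 13033 of these had 1 gene symbol. They gave 8866 genes, of which 8060 were detected on both arrays, 531 on the vehicle array alone and 275 on the nobiletin array alone. A gene detected on 1 array has only a bound for its difference, taken against the lowest detected level on the other array. The levels of both pools correlated at r = 0.986 across genes, which share the same 2 arrays and are not independent. The median difference over all genes was -0.01, and the differences from the 1st to the 99th percentile ran from -1.03 to 0.76.

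At least 2-fold higher under nobiletin were 35 genes, 0.395% of those measured, and at least 2-fold lower were 90 genes, 1.02% of those measured. At least 1.5-fold higher were 201 genes (2.27%) and at least 1.5-fold lower were 324 genes (3.65%). The higher side was led by the signalling regulator Rgs3 and the drug-metabolizing P450 enzymes Cyp1a2 and Cyp2c54, and the lower side by the surface protein Ly6d, the lipid droplet proteins Cidea and Cidec and the iron-binding lipocalin Lcn2. The only error measure within these arrays is the agreement of different probes of 1 gene. In 2632 genes with 2 or more probes detected on both arrays, the differences given by the 2 brightest probes were 0.14 apart in the median, and the SD of their gap was 0.23. Of the 11 genes at least 2-fold higher by their brightest probe that had a second such probe, the second was at least 1.5-fold higher in 10 and at least 2-fold higher in 6. On the lower side the second probe was at least 1.5-fold lower in 12 of 13 and at least 2-fold lower in 7. The second probe shared the direction in each of these genes, while the sizes agreed less closely.

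**Figure D1:**
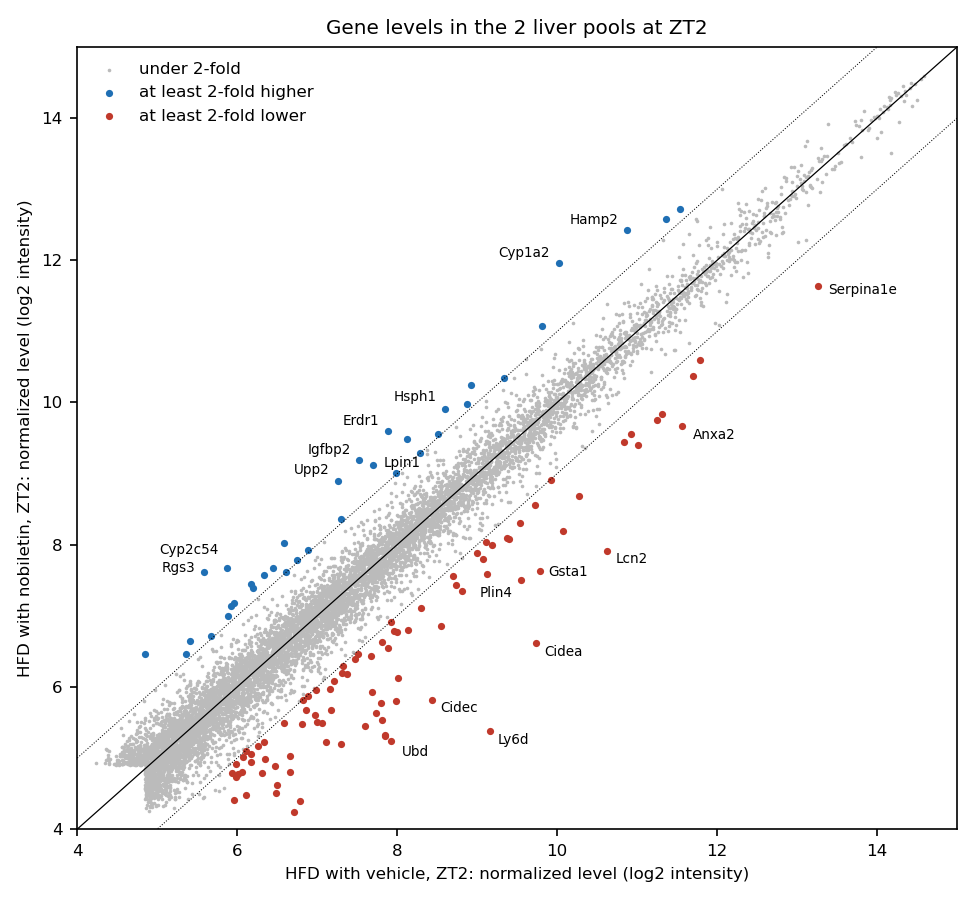
Level of each of the 8866 genes in the pool with vehicle (x axis) and the pool with nobiletin (y axis) at ZT2, as log2 intensity, with 1 array a side. The solid line marks equal levels and the dotted lines a 2-fold difference; blue and red points are the 35 genes at least 2-fold higher and the 90 at least 2-fold lower under nobiletin.

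Genes of lipid droplets lay lower under nobiletin. Cidea, which joins droplets into larger ones, lay at 6.13 on chow, 9.74 with vehicle and 6.61 with nobiletin at ZT2, and at 7.92, 8.65 and 6.66 in the same order at ZT14. Its difference at ZT2 was -3.13, an 8.75-fold lower level, and the nobiletin pool stood close to the chow pool. Cidec, the related droplet fusion protein, was undetected on chow, at 8.43 with vehicle and at 5.82 with nobiletin, a difference of -2.61. In Plin4, a coat protein of droplets, the levels were 5.94 on chow, 9.55 with vehicle and 7.50 with nobiletin at ZT2, and 7.04, 9.99 and 10.45 at ZT14. Its difference was thus -2.05 in the early light and 0.47 in the early dark. Named after their values were seen, the other members at least 2-fold lower were Pparg, the nuclear receptor that drives many droplet genes, at -1.54, and the lipoprotein lipase Lpl at -1.22. The 3 probes of Pparg ranged from -1.54 to -0.62. Of 20 measured genes of the lipid droplet and PPAR-gamma list, 5 were at least 2-fold lower and 0 higher, against 1.02% and 0.395% of all genes. The median of the list was -0.44, with 17 members below 0, and 1 member was detected on 1 array. The coat protein Plin2, also picked out afterwards, lay at 10.35 with vehicle and 9.36 with nobiletin, just under 2-fold at -0.99, while Plin5 lay at 8.81 and 8.78.

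Measured genes of the lists of fatty acid synthesis and of mitochondrial oxidation and ketogenesis differed little at this time. None of 18 fatty acid synthesis genes and none of 18 genes of mitochondrial oxidation and ketogenesis was 2-fold apart, and their medians were 0.04 and -0.13, the latter 0.01 with median scaling of the arrays. The lipogenic regulator Srebf1 was 1.5-fold lower at -0.59, the fatty acid synthase Fasn lay at 0.46 close to background, and the sugar-sensing factor Mlxipl, known as ChREBP, lay at 0.57. Pdk4, a kinase that holds back sugar oxidation in fasting, lay at -0.67. Of 23 peroxisomal and PPAR-alpha targets 1 was at least 2-fold lower and 0 higher, against 1.02% and 0.395% of all genes. The lower one was the hepatokine Fgf21, at 9.11 with vehicle and 8.04 with nobiletin and undetected on chow at both times. The peroxisomal division factor Pex11a lay at -0.72 and the thioesterase Acot3 at 0.69. In triglyceride synthesis and lipoprotein assembly 1 of 21 genes was at least 2-fold higher and 0 lower, against 0.395% and 1.02% of all genes. This was Lpin1, a phosphatidate phosphatase that also acts as a transcriptional coactivator, at 7.03 on chow, 7.70 with vehicle and 9.12 with nobiletin at ZT2, and at 9.21, 8.29 and 8.39 at ZT14. The nobiletin pool was the highest of the 3 at ZT2, and its ZT2 level was near the chow level of ZT14. Both probes of Lpin1 gave it, at 1.20 and 1.42. The apolipoprotein Apoa4 lay at -0.68, and its 3 probes ranged from -0.98 to -0.68. With vehicle it stood near the top of the intensity scale, and compression of differences there was not tested.

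Genes of lipid-laden macrophages were lower as well. Gpnmb, a glycoprotein of these cells, was undetected on chow at both times, at 7.84 with vehicle and 5.32 with nobiletin at ZT2, and at 7.96 and 5.43 at ZT14. The differences were -2.52 at ZT2 and -2.53 at ZT14, so both pairs of pools gave nearly the same value. The matrix protease Mmp13 was detected with vehicle at 6.66 and undetected with nobiletin, a difference of at least -1.75 in the lower direction. Lgals1, a galactoside-binding lectin, lay at 8.49 on chow, 11.32 with vehicle and 9.84 with nobiletin, a difference of -1.48. Of 17 measured genes of the list, 8 were at least 2-fold lower and 0 higher, against 1.02% and 0.395% of all genes. The others, named after their values were seen, were Cd63 at -1.27, Lgals3 at -1.16, the lipid receptor Trem2 at -1.11, Lpl, which also stands in the droplet list, and Mmp12, which was undetected with nobiletin. The list median was -0.76, or -0.57 with the 3 members detected on 1 array set at their bounds. In bulk liver RNA, fewer cells of a type and less RNA of these genes per cell cannot be told apart.

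General macrophage markers differed less. Of 13 measured Kupffer cell and macrophage markers, 9 lay below 0 and 4 above, with a median of -0.15. At least 1.5-fold lower were 0, and 1 was at least 2-fold higher, against 3.65% and 0.395% of all genes. The higher one was Cd163, the scavenger receptor for haemoglobin, at 6.72 on chow, 6.19 with vehicle and 7.39 with nobiletin at ZT2, and at 7.61, 6.62 and 7.72 at ZT14. The nobiletin pool was above the vehicle pool at both times, by 1.20 and 1.09. The scavenger receptor Marco lay at -0.58, just under 1.5-fold and close to background at 4.92 with nobiletin, and at 1.14 at ZT14. Mpeg1 lay at -0.47 at ZT2 and, named afterwards, Adgre1, which encodes F4/80, at -0.40. At ZT14, 5 of the 13 were at least 1.5-fold higher and 0 lower, against 2.08% and 3.41% of all genes, with a median of 0.42. Summed over the 13 markers, the normalized intensity was 6824 with vehicle and 6125 with nobiletin, beside 5153 on chow.

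Neutrophil genes were among the lowest. S100a8, which encodes a subunit of calprotectin, lay at 6.08 on chow, 7.82 with vehicle and 5.53 with nobiletin at ZT2, and was undetected on chow, at 6.76 and at 6.38 at ZT14. The difference was -2.28 at ZT2 and -0.38 at ZT14. Its partner S100a9 was undetected with nobiletin and at least 1.59 below vehicle on the log2 scale. Lcn2, made by neutrophils and by stressed hepatocytes, lay at 8.01 on chow, 10.63 with vehicle and 7.92 with nobiletin at ZT2, and at 8.62, 10.48 and 8.27 at ZT14. The nobiletin and chow levels of Lcn2 were close at both times. Of 9 neutrophil markers 4 were measured, and Camp, Elane, Ly6g, Mpo and Ngp were not detected on either array. The summed intensity of the 4 was 1869 with vehicle and 268 with nobiletin at ZT2, and 1555 and 396 at ZT14. Most of these sums is Lcn2: without it they were 304 with vehicle and 42.5 with nobiletin at ZT2, and 140 and 103 at ZT14. The part of neutrophil number in these values was not tested.

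Annexins, S100 proteins and matrix genes also lay on the lower side. Anxa2, which links membranes to actin, was at 8.82 on chow, 11.56 with vehicle and 9.66 with nobiletin, a difference of -1.90, and its second probe gave -0.95. The calcium-binding S100a11 lay at 7.94, 10.07 and 8.20 in the same order, a difference of -1.87. Of 15 annexins and S100 proteins 5 were at least 2-fold lower, against 1.02% of all genes. They were Anxa2, S100a11, S100a8, S100a9 and, named afterwards, Anxa5 at -1.19. At least 1.5-fold lower were 6 of the 15, with S100a10 at -0.59, named afterwards, as the sixth, against 3.65% of all genes, 0 were higher, and the median of the list was -0.17. In the fibrosis and matrix list 1 of 21 genes was at least 2-fold lower, against 1.02% of all genes. It was Timp1, an inhibitor of matrix proteases, which was detected with vehicle at 6.47 and undetected with nobiletin and on chow. Its bound was -1.56. At least 1.5-fold lower were 7 of the 21, against 3.65% of all genes, and 0 were higher, with a median of -0.47, or -0.24 with an offset of 50 in the normalization. Among them were the growth factor Ccn2 at -0.99 and the basement membrane collagen Col4a1 at -0.85. Of 10 stellate cell markers 3 were at least 1.5-fold lower and 0 higher, against 3.65% and 2.27% of all genes. They were led by the smooth muscle actin Acta2 at -0.80, whose 3 probes ranged from -0.80 to 0.01. The summed intensity of the stellate markers was 6465 with vehicle, 5111 with nobiletin and 3852 on chow, and its part in the matrix values was not tested.

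Acute phase and interferon genes held more lower than higher members. Of 26 acute phase genes 2 were at least 2-fold lower and 1 higher, against 1.02% and 0.395% of all genes. At least 1.5-fold lower were 6 and higher 1, against 3.65% and 2.27% of all genes, and the median was -0.09 with 16 members below 0. Lower were Lcn2 and the glycoprotein Orm2, which lay at 10.46 on chow, 10.92 with vehicle and 9.56 with nobiletin at ZT2. The higher one was Hamp2, a hepcidin gene. It lay at 12.05 on chow, 10.87 with vehicle and 12.42 with nobiletin at ZT2, and at 11.13, 12.45 and 10.86 at ZT14. The vehicle pool was thus the lowest at ZT2 and the highest at ZT14, with differences of 1.55 and -1.59. The other hepcidin gene, Hamp, whose product blocks iron export from cells, lay at 0.52 at ZT2 and 1.31 at ZT14. Both hepcidin genes are close in sequence, and cross-hybridisation was not tested. Of 25 interferon response genes 2 were at least 2-fold lower and 1 higher, against 1.02% and 0.395% of all genes. At least 1.5-fold lower were 6 and higher 1, against 3.65% and 2.27% of all genes. The list median was -0.17, with 16 members below 0. Ubd, a ubiquitin-like modifier that targets proteins for breakdown, lay at 5.51 on chow, 7.92 with vehicle and 5.24 with nobiletin, a difference of -2.69. The oligoadenylate synthetase-like Oasl1 lay at -1.18, and Bst2, which tethers enveloped virus particles, at 1.37. Bst2 stood at 9.76 on chow, 8.12 with vehicle and 9.49 with nobiletin at ZT2 and between 9.07 and 9.25 in the 3 pools of ZT14. The vehicle pool of ZT2 was therefore the one that stood apart. Among 19 genes of antigen presentation 5 were at least 1.5-fold lower and 0 higher, against 3.65% and 2.27% of all genes. The 5 were class II genes such as H2-Eb1 at -0.80, H2-Aa at -0.80 and the invariant chain Cd74 at -0.77. The median of the antigen presentation list was 0.01.

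Drug-metabolizing P450 genes held some of the largest differences on the higher side. Cyp1a2, a caffeine-oxidizing enzyme induced through the aryl hydrocarbon receptor, lay at 11.56 on chow, 10.02 with vehicle and 11.97 with nobiletin at ZT2, and at 12.10, 9.75 and 11.76 at ZT14. The differences of 1.95 and 2.01 were nearly equal, and the 2 probes gave 1.95 and 2.28 at ZT2. The other 3 measured genes of that list were under 1.5-fold: Ugt1a6a at 0.14, the receptor's partner Arnt at 0.42 and, named afterwards, Nqo1 at -0.10. Cyp2c54, an oxidase of fatty acids and drugs, lay at 8.02 on chow, 5.87 with vehicle and 7.67 with nobiletin, a difference of 1.80. Cyp2b10, the classic target of the xenobiotic receptor CAR, lay at 8.46, 5.96 and 7.18 at ZT2 and at 10.10, 5.91 and 8.82 at ZT14. In Cyp2b10 the nobiletin pool was above vehicle and below chow at both times, with differences of 1.22 and 2.91. Of 23 targets of CAR and its sister receptor PXR, 4 were at least 2-fold higher and 0 lower, against 0.395% and 1.02% of all genes. At least 1.5-fold higher were 5 and lower 3, against 2.27% and 3.65% of all genes, and the median was 0.04. The other two past 2-fold were Cyp2c29 at 1.23 and, named afterwards, Cyp2c50 at 1.19, whose second probe gave 0.41. Cyp2a4 lay at -0.97, close to background at 4.92 with nobiletin, and the PXR target Cyp3a11, named afterwards, at -0.60. The Cyp2c genes are near-identical within their family, and cross-hybridisation was not tested.

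Gsta1 and Gsta2, glutathione transferases of the alpha class, lay lower. Gsta1 stood at 8.80 on chow, 9.79 with vehicle and 7.62 with nobiletin at ZT2, and at 6.84, 10.41 and 8.18 at ZT14. Its difference was -2.16 at ZT2, with 3 probes from -2.16 to -0.92, and Gsta2 lay at -1.30. As both are close in sequence, a probe of one may also bind the other, which was not tested. The carbonyl reductase Cbr3 lay at 5.68 on chow, 7.79 with vehicle and 5.77 with nobiletin, a difference of -2.02, with -1.07 by its second probe. Gsta1, Gsta2 and Cbr3 were the 3 genes at least 2-fold lower among 21 NRF2 targets and glutathione transferases, against 1.02% of all genes. In that list 0 were at least 2-fold higher, against 0.395% of all genes. At least 1.5-fold lower were 4 and higher 2, against 3.65% and 2.27% of all genes. Members of the list ran from -2.16 to 0.96, with a median of -0.11. NRF2 is the sensor of electrophiles that drives many of them. Hmox1, the heme oxygenase that NRF2 also drives, lay on the other side at 0.94, close to background at 5.09 with vehicle. Among 16 genes of the list of sulfotransferases and glucuronosyltransferases 0 were 2-fold apart. At least 1.5-fold higher were 2 and lower 3, against 2.27% and 3.65% of all genes. Among them were the sulfotransferase Sult1d1 at 0.73, Ugt1a9 at -0.87 and Slc13a4. Slc13a4 was detected with vehicle alone, with a bound of -0.87.

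A few genes of the axis of growth hormone and insulin-like growth factor (IGF) were higher at ZT2. Igfbp2, a binding protein of insulin-like growth factors, lay at 9.96 on chow, 7.52 with vehicle and 9.19 with nobiletin at ZT2, and at 10.26, 7.76 and 9.79 at ZT14. Its differences were 1.67 and 2.02. Socs2, a feedback inhibitor of the growth hormone receptor, lay at 9.73, 8.87 and 9.98 at ZT2 and at 8.45, 7.05 and 7.63 at ZT14. Cish, another inhibitor driven by STAT5, lay at 9.60, 7.98 and 9.01 at ZT2 and at 8.30, 7.79 and 7.86 at ZT14. The Socs2 and Cish differences were 1.11 and 1.03 at ZT2 and 0.58 and 0.06 at ZT14. These were the 3 genes at least 2-fold higher of 13 in the growth hormone and IGF list, against 0.395% of all genes. In that list 0 were lower, 7 lay above 0 and 6 below, and the median was 0.16. Igf1 itself, named afterwards, lay at 0.25.

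Of 17 genes that are higher in male than in female liver, 4 were at least 2-fold lower and 0 higher, against 1.02% and 0.395% of all genes, although the median was 0.12. Cyp4a12b, a fatty acid hydroxylase, lay at 10.91 on chow, 7.99 with vehicle and 5.80 with nobiletin at ZT2. At ZT14 it lay at 10.52 on chow, was undetected with vehicle and lay at 6.11 with nobiletin. Both high-fat pools were far below chow, and the order of vehicle and nobiletin differed between the times. Serpina1e, an alpha-1-antitrypsin paralog, lay at 14.35, 13.26 and 11.64 at ZT2 and at 14.40, 10.85 and 9.56 at ZT14. Hsd3b5, a steroid-metabolizing dehydrogenase, lay at 11.06, 7.88 and 6.55 at ZT2 and was undetected in both high-fat pools at ZT14. The fourth, named afterwards, was the adipokine Serpina12 at -1.33, with -0.50 by its second probe. Among the male-biased genes the nobiletin pool therefore lay farther from chow than the vehicle pool in Cyp4a12b, Serpina1e and Hsd3b5. Of 9 female-biased genes 0 were 2-fold apart, and 2 were at least 1.5-fold higher and 2 lower, against 2.27% and 3.65% of all genes. The largest were Cyp2a4 at -0.97, close to background with nobiletin, and Cyp17a1, an enzyme of steroid synthesis, at 0.90. The Serpina1 and Cyp4a12 paralogs are close in sequence, and cross-hybridisation was not tested.

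Cytosolic chaperones of the heat shock response were higher at ZT2. Hsph1, a nucleotide exchange factor of HSP70, lay at 10.29 on chow, 8.60 with vehicle and 9.91 with nobiletin at ZT2, and at 10.72, 8.73 and 8.58 at ZT14. Stip1, which hands clients from HSP70 to HSP90, lay at 9.15, 8.28 and 9.29 at ZT2 and at 9.60, 8.53 and 8.39 at ZT14. In both genes the nobiletin pool was near chow at ZT2 and near vehicle at ZT14. The differences were 1.31 and 1.01 at ZT2 and -0.15 and -0.15 at ZT14. Of 15 measured genes 5 were at least 1.5-fold higher at ZT2, against 2.27% of all genes, 1 was lower and the median was 0.39. At ZT14, 0 of 15 were 1.5-fold apart and the median was 0.10. The other three, named afterwards, were the HSP40 Dnajb1 at 0.93, Hsp90aa1 at 0.75 and the HSP90 cochaperone Chordc1 at 0.65. The lower one was Cirbp, a cold-inducible RNA-binding protein that is low when heat shock proteins are high, at 6.96 with vehicle and 5.99 with nobiletin.

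Heat shock factor binds inverted repeats of a short pentamer, and GAANNTTC is the core where 2 of them meet; these letters were chosen after the values were seen. RefSeq promoter windows, of 250 bases before to 50 after a start site in build GRCm38.p6, were searched for it. It reads the same on both strands. It was present in 9 of 19 windows of the measured heat shock genes, which is 47.4%, against 7.86% of all 32851 windows and 5.85% of those of all measured genes. The 19 windows came from 13 genes, of which 8 held the core, and 2 overlapping windows of Hsph1 held the same match. Of the 5 heat shock genes at least 1.5-fold higher 4 had a window, and 2 of these held the core, Chordc1 and Hsph1. The share of the list is thus not one of its higher members. The list was drawn up from heat shock genes, so its share describes the list and not the nobiletin difference. Of the genes at least 2-fold higher, 7 of 32 windows, or 21.9%, held the core. They came from 6 of 28 genes with a window, with both windows of Hsph1 counted. Of those at least 2-fold lower, 5 of 82 windows, or 6.1%, did. Hsph1 (chr5:149636287-149636586, minus strand) and Chordc1 (chr9:18292017-18292316, plus strand) are shown because they were higher at ZT2 and hold the core, which is in capitals. It starts at position 42 from the start site in Hsph1, and at -4 and 7 in Chordc1. A match is a description of the letters, not of bound factor.
Hsph1: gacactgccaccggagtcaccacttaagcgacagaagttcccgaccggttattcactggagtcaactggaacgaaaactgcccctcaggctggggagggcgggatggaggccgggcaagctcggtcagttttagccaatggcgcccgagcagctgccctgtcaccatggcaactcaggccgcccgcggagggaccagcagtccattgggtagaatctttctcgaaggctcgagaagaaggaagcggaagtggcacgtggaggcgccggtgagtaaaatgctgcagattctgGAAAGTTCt
Chordc1: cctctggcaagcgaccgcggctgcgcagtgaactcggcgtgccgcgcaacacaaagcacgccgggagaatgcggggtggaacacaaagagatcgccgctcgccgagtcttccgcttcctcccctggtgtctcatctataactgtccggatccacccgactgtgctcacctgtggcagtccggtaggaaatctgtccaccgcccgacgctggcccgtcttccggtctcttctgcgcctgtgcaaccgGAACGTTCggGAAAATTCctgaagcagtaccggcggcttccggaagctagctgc

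Other stress genes were mixed. Of 17 chaperones of the endoplasmic reticulum 0 were 1.5-fold apart, and the median was 0.20. In the integrated stress response list 2 of 20 genes were at least 2-fold lower and 1 higher, against 1.02% and 0.395% of all genes. The list median was -0.08, or -0.02 with the 6 members detected on 1 array set at their bounds. Asns, the asparagine synthetase, lay at 8.46 on chow and 6.10 with vehicle and was undetected with nobiletin, so its bound was -1.20. Fgf21 was the other lower one. Eif4ebp3, an inhibitor of cap-dependent translation, lay at 7.03 on chow, was undetected with vehicle and lay at 6.46 with nobiletin, a bound of 1.61. Cth, which makes cysteine and hydrogen sulfide, lay at 0.90. Of 17 immediate-early genes 2 were at least 2-fold lower and 0 higher, against 1.02% and 0.395% of all genes. The list median was -0.24, or -0.08 with the 2 members detected on 1 array set at their bounds. The 2 lower genes were the cell cycle inhibitor Cdkn1a at -1.17 and the stress gene Gadd45g, just past the threshold. Cdkn1a lay at 6.39 on chow, 7.96 with vehicle and 6.79 with nobiletin at ZT2, and at 7.15, 9.39 and 7.13 at ZT14, so nobiletin was near chow at both times. Gadd45g stood at 12.25 on chow and 9.92 with vehicle, and 8.91 with nobiletin was farther from chow.

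Core clock genes differed little. Of the 7 measured genes on the list of clock repressors with E-boxes, 0 were 1.5-fold apart. All 7 lay above 0, between 0.17 and 0.48, with a median of 0.30 against -0.01 for all genes. These sizes are close to the SD of 0.23 between 2 probes of 1 gene. Per1 lay at 5.98 on chow, 6.69 with vehicle and 6.85 with nobiletin at ZT2, and Per2 at 7.20, 7.54 and 7.81. Ciart, a repressor of CLOCK and BMAL1, lay at 5.28, 5.82 and 6.11, and Bhlhe40, another repressor, at 8.63, 9.19 and 9.68. In these 4 genes the order was chow, vehicle, nobiletin from low to high. Nr1d1, which encodes REV-ERB-alpha, lay at 6.27, 6.17 and 6.58, and was undetected at ZT14 in the 3 pools. Nr1d2, its paralog, lay at 6.06, 6.63 and 6.95, and the cryptochrome Cry2 at 5.67, 5.51 and 5.76.

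Among the activators, Arntl, which encodes BMAL1, lay at 6.88 on chow, 5.35 with vehicle and 5.65 with nobiletin at ZT2, and at 5.85, 6.25 and 6.07 at ZT14. On chow it was higher at ZT2 than at ZT14 and in both high-fat pools it was lower at ZT2. Clock lay at 8.39 with vehicle and 8.33 with nobiletin, and its 2 probes gave -0.06 and 0.53. Rora, the measured ROR receptor, lay at 7.89 in both pools. By the brightest probe, the Arntl difference of 0.30 at ZT2, close to background, was therefore the largest of the 3.

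**Figure D2:**
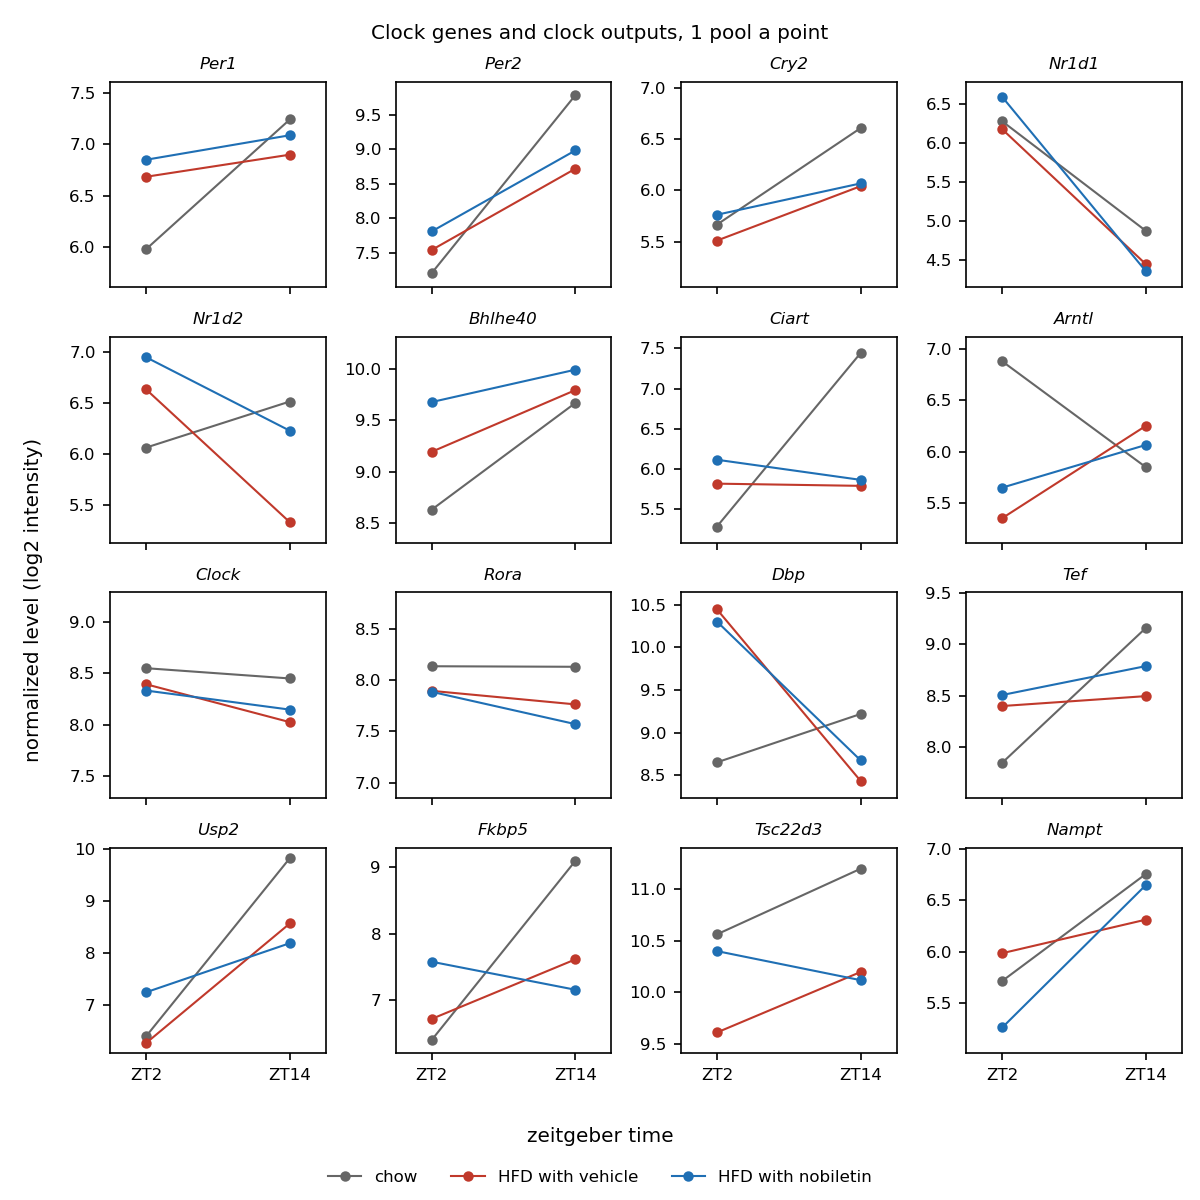
Levels (log2 intensity) of 16 clock genes and clock outputs at ZT2 and ZT14 in the pools on chow (grey), high-fat diet with vehicle (red) and high-fat diet with nobiletin (blue), 1 array a point, with at least 2 units on each vertical axis. Usp2 and Fkbp5 are higher with nobiletin than with vehicle at ZT2 and lower at ZT14, and Nr1d1 was undetected at ZT14.

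Clock output genes were more apart than the core. Usp2, a deubiquitinase, lay at 6.39 on chow, 6.26 with vehicle and 7.24 with nobiletin at ZT2, and at 9.82, 8.56 and 8.18 at ZT14. Fkbp5, a cochaperone of the glucocorticoid receptor, lay at 6.39, 6.71 and 7.57 at ZT2 and at 9.09, 7.61 and 7.15 at ZT14. Tsc22d3, a glucocorticoid-induced regulator also called GILZ, lay at 10.56, 9.61 and 10.40 at ZT2 and at 11.20, 10.20 and 10.12 at ZT14. Their differences at ZT2 were 0.98, 0.86 and 0.79, and at ZT14 they were -0.38, -0.46 and -0.08. With nobiletin, Fkbp5 and Tsc22d3 were thus higher at ZT2 than at ZT14, the reverse of the order in the chow and vehicle pools. Nampt, which makes a precursor of NAD, lay at 5.99 with vehicle and 5.26 with nobiletin, a difference of -0.72. These 4 were the members at least 1.5-fold apart of 9 measured output factors and kinases. Of them 3 were higher and 1 lower, against 2.27% and 3.65% of all genes, and the median of the 9 was -0.05. Dbp, a direct target of the clock, lay at 8.65 on chow, 10.45 with vehicle and 10.30 with nobiletin, and Tef at 7.85, 8.40 and 8.51.

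The clock activators bind the E-box, CACGTG, which reads the same on both strands. It was present in 7.15% of all 32851 windows and 10.1% of those of all measured genes, in 12.5% of windows (4 of 32, from 3 genes) of the genes at least 2-fold higher and in 4.88% of windows of those at least 2-fold lower. The ROR element core AGGTCA, searched on both strands, was in 16.3% of all windows, 15.6% of the windows of higher genes and 15.9% of those of lower genes. The D-box TTATGNAA was in 3.38%, 3.12% and 2.44% in the same order, and GCGTG, the core of the element bound by the aryl hydrocarbon receptor, in 32.4%, 31.2% and 41.5%. Over the windows of all measured genes, the group both sets come from, these shares were 13.1% for the ROR core, 2.39% for the D-box and 49.4% for GCGTG. Of the 7 measured clock repressors 5 had a window, and Ciart (chr3:95882179-95882478, minus strand) and Per1 (chr11:69098699-69098998, plus strand) held an E-box. A second window of Per1 held none. Both are shown as clock targets whose small differences are given above, with the E-box in capitals. It starts at -116, -58 and -44 from the start site in Ciart and at -166 in Per1.
Ciart: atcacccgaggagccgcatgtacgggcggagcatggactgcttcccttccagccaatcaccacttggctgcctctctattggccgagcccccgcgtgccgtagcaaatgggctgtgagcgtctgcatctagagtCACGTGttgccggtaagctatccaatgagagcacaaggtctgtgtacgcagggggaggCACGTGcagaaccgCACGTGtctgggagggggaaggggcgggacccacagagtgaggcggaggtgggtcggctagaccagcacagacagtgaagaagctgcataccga
Per1: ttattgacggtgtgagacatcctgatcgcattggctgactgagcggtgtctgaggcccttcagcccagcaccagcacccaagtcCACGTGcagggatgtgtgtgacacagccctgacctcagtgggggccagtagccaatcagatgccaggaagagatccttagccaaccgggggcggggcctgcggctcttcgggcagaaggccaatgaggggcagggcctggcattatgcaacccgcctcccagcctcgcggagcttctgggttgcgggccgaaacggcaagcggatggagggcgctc

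Amino acid breakdown lay slightly higher. Of 38 genes of the urea cycle and amino acid breakdown 6 were at least 1.5-fold higher, against 2.27% of all genes, and 0 were lower, with 32 above 0 and a median of 0.27. Upp2, a uridine phosphorylase, lay at 8.88 on chow, 7.27 with vehicle and 8.90 with nobiletin at ZT2, and at 9.94, 7.91 and 9.68 at ZT14. It was the 1 gene of the list at least 2-fold higher, at 1.64, against 0.395% of all genes. Its 4 probes ranged from 0.99 to 1.64. As a uridine phosphorylase, Upp2 is not itself an enzyme of the urea cycle or of amino acid breakdown. Hpd, of tyrosine breakdown, lay at 0.84, and the urea cycle enzyme Cps1 at 0.73. Of 8 measured hepatocyte markers, Cps1 was the 1 at least 1.5-fold higher and 0 were lower, against 2.27% and 3.65% of all genes. The median of the 8 was 0.18. Their summed intensity was 65743 with vehicle, 72742 with nobiletin and 73807 on chow, and its part in the values of other hepatocyte genes was not tested.

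Cholesterol synthesis genes were on the higher side by small amounts. Of 21, 2 were at least 1.5-fold higher, against 2.27% of all genes, and 0 lower, with 17 above 0 and a median of 0.31. Mvd, of the mevalonate pathway, lay at 6.96 with vehicle and 7.68 with nobiletin, and the sterol demethylase Cyp51 at 8.17 and 8.76. At ZT14, 13 of the 21 were at least 1.5-fold higher, against 2.08% of 8134 genes measured there, and the median was 0.75. Bile acid genes lay on both sides of 0. Of 18, 3 were at least 1.5-fold higher, against 2.27% of all genes, and 0 lower, with 9 above 0, 9 below and a median of -0.05. They were the bile salt export pump Abcb11 at 0.74, the sterol hydroxylase Cyp27a1 at 0.65 and the bile acid uptake transporter Slc10a1 at 0.62. Slc10a1 lay close to background, at 5.41 with vehicle and 6.03 with nobiletin. Cyp7a1, the rate-limiting enzyme, named afterwards, lay at 0.17.

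Of 22 genes of glucose metabolism 1 was at least 2-fold lower and 0 higher, against 1.02% and 0.395% of all genes. At least 1.5-fold lower were 2 and higher 1, against 3.65% and 2.27% of all genes. The gene past 2-fold was Ppp1r3g, a glycogen-targeting subunit of protein phosphatase. It lay at 6.16 on chow, 6.81 with vehicle and 5.48 with nobiletin. At ZT14 it was undetected on chow and with vehicle and at 6.54 with nobiletin. G6pc, the last enzyme of glucose output, lay at -0.85, and Ppp1r3b, another glycogen-targeting subunit, at 0.70. Housekeeping complexes lay at 0: of 58 oxidative phosphorylation genes, 48 cytosolic ribosomal proteins and 26 proteasome subunits, 0 were 1.5-fold apart, with medians of 0.05, -0.04 and 0.02. Of 35 complement and coagulation genes 0 were 2-fold apart. At least 1.5-fold higher were 2, C8b at 0.88 and F7 at 0.72, and 0 lower, against 2.27% and 3.65% of all genes.

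**Figure D3:**
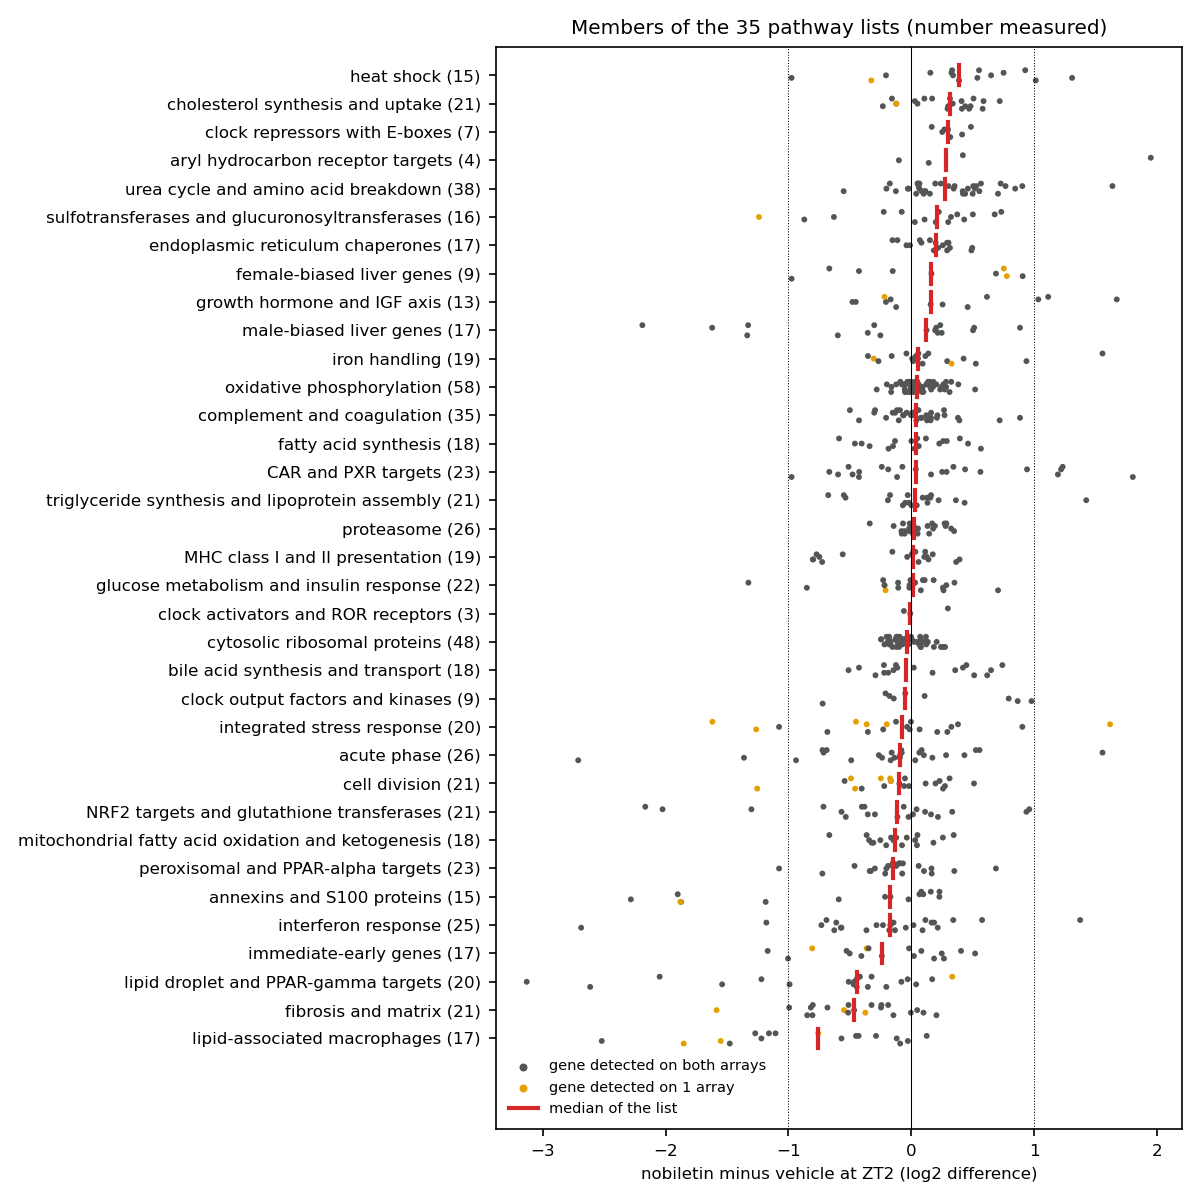
Log2 difference, nobiletin minus vehicle at ZT2, of each measured gene in 35 pathway lists, with the number measured after each name. Points are genes, orange where the gene was detected on 1 array, red bars are list medians, dotted lines mark 2-fold, and the medians run from 0.39 for heat shock to -0.76 for lipid-associated macrophages.

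Among the remaining large differences, Ly6d, a surface protein of lymphoid and epithelial cells, lay at 5.07 on chow, 9.16 with vehicle and 5.38 with nobiletin at ZT2. At ZT14 it was undetected on chow and lay at 9.32 and 6.72. Its difference of -3.78, which is 13.7-fold, was the largest of all genes, and its second probe gave -4.20. Esm1, a proteoglycan of endothelial cells, lay at 7.84, 7.85 and 5.31 at ZT2, so vehicle and chow were alike and nobiletin was low. Robo1, a guidance receptor, had the same order at 7.42, 7.74 and 5.63. Osbpl3, a sterol-binding protein, was undetected on chow and lay at 7.60 with vehicle and 5.46 with nobiletin, and Ttc39a was undetected on chow and lay at 7.30 and 5.20. The largest bounds among genes detected with vehicle alone were -1.88 for the orphan receptor Gprc5b and -1.80 for the scaffold protein Sdcbp2, whose other probe gave -0.99. On the higher side, Rgs3, which shortens G protein signals, lay at 6.16, 5.58 and 7.62 at ZT2 and at 6.31, 5.51 and 5.90 at ZT14. It was the largest difference on that side at 2.03, and at ZT14 the nobiletin pool lay between vehicle and chow. Erdr1 lay at 9.75, 7.89 and 9.60, with differences of 1.72 and 0.87 by its 2 probes. The uric acid pathway enzyme Urad lay at 1.44, the lectin Clec2d at 1.32, the carboxylesterase Ces3b at 1.26 with 3 probes from 0.38 to 1.26, Tedc2 at 1.27 and the dehydrogenase Sdr9c7 at 1.24.

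**Figure D4:**
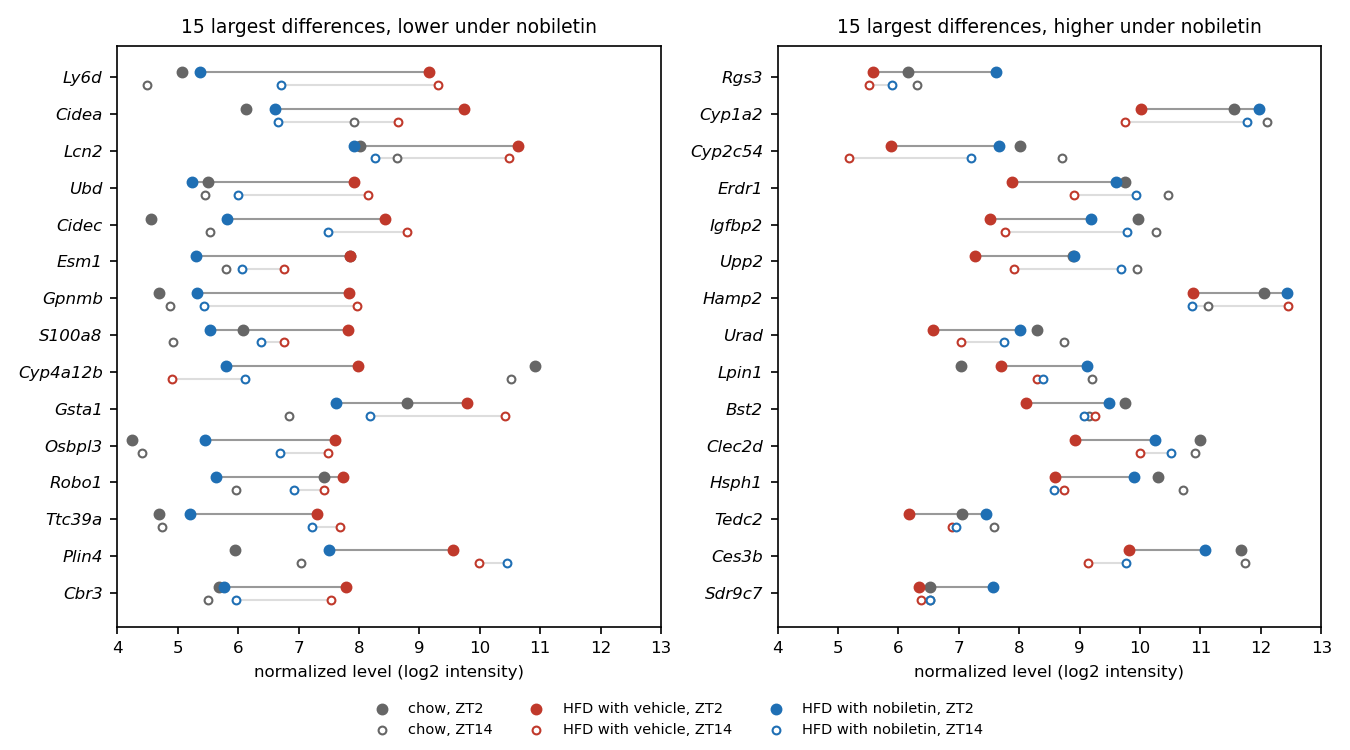
Levels (log2 intensity) of the 15 genes with the largest differences each way, on chow (grey), high-fat diet with vehicle (red) and high-fat diet with nobiletin (blue), filled at ZT2 and open at ZT14, 1 array a point. Lines join vehicle and nobiletin; Cidea, Lcn2, Upp2 and Erdr1 have nobiletin next to chow at ZT2, and Hamp2 has its order turned at ZT14.

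Markers of other cells that a piece of liver could hold lay on both sides of 0. Of 10 endothelial markers 1 was at least 2-fold lower, Lyve1 at -1.13, against 1.02% of all genes, and the median was -0.01. Of 14 exocrine pancreas markers 11 were not detected, and the 3 measured all lay above 0. Cela1 stood at 8.52 with vehicle and 9.55 with nobiletin, and Amy2a5 at 12.30 and 12.69. The summed intensity of the 3 was 5382 with vehicle and 7350 with nobiletin at ZT2, and 5660 and 5793 at ZT14. Of 14 skeletal muscle markers 8 were measured, 4 of them on 1 array, and their summed intensity was 194 with vehicle and 123 with nobiletin at ZT2, against 949 and 137 at ZT14. Muscle RNA was thus near background in both ZT2 pools and not in the vehicle pool of ZT14, nor in the chow pool of ZT14, at 5314. Red blood cell markers lay at a median of -0.18, and the adipocyte marker Adipoq, 1 of 7 measured, lay at 0.86 close to background. Of 14 lymphocyte markers 3 were measured, 2 of them on 1 array, and all 3 lay below 0. Their median was -0.47, or -0.23 with bounds for the 2. Of 9 cholangiocyte markers 3 were measured, with Sox9 at -0.65 at ZT2 and -1.18 at ZT14, and Cdh1 at 0.13 at ZT2. The part of these cells in the values of other genes was not tested.

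The pools of ZT14 share no array with those of ZT2. Of 35 genes at least 2-fold higher at ZT2, 16 were at least 1.5-fold higher at ZT14, or 45.7%, against 2.08% of all genes at that time, and 2 were at least 1.5-fold lower, Hamp2 and, named afterwards, Lrtm1 at 1.21 and -0.83. Of 89 lower genes that were measured at ZT14, 50 were at least 1.5-fold lower there, or 56.2%, against 3.41% of all genes, and 3 were higher, namely Cyp4a12b, Ppp1r3g and Asns. Across 7828 genes, normalized together, the ZT2 and ZT14 differences had a Pearson r of 0.36 and a Spearman rho of 0.25. Cyp1a2, Igfbp2, Upp2, Gpnmb, Lcn2 and Ubd were among those alike at both times. Hsph1, Stip1, Lpin1, Rgs3, Bst2 and Cish were at least 2-fold higher at ZT2 and under 1.5-fold at ZT14, and Plin4, S100a8 and Ttc39a were lower at ZT2 and under 1.5-fold at ZT14. Whether a difference depends on the time could not be tested with 1 array each.

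**Figure D5:**
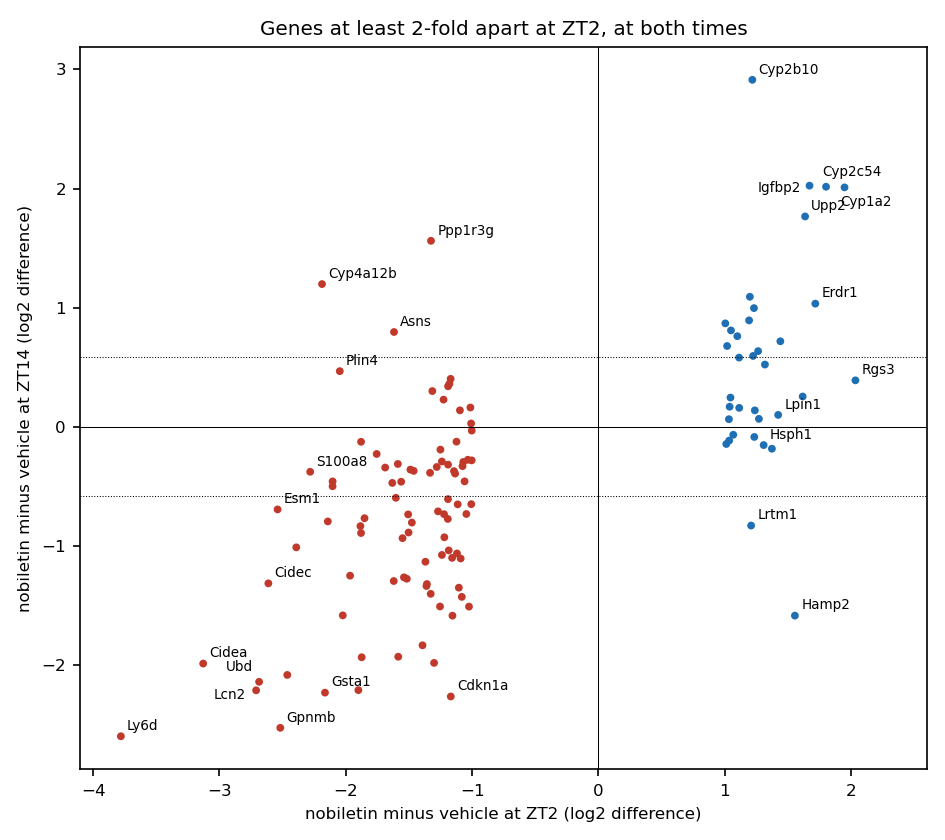
Log2 difference, nobiletin minus vehicle, at ZT2 (x axis) and ZT14 (y axis) for the genes at least 2-fold higher (blue) or lower (red) at ZT2, with dotted lines at 1.5-fold for ZT14. Of the higher genes 16 lie above the upper dotted line, and Hamp2, Lrtm1, Cyp4a12b, Ppp1r3g and Asns are at least 1.5-fold the other way at ZT14.

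The effect of the diet was read at ZT14, from the vehicle and chow pools of that time, which are not in the ZT2 comparison. Skeletal muscle markers differed between these pools, with a summed intensity of 5314 on chow and 949 with vehicle, and their part was not tested. Of the 35 genes higher with nobiletin at ZT2, 26 were at least 1.5-fold lower on the high-fat diet at ZT14, or 74.3%, against 7.05% of 8158 genes, and 1 was higher. Of the 89 lower genes measured there, 68 were at least 1.5-fold higher on the diet, or 76.4%, against 10.2% of all genes, and 6 were lower. Across 8158 genes the nobiletin difference at ZT2 and the diet difference at ZT14 correlated at r = -0.47 and rho = -0.40. The genes lower both with nobiletin at ZT2 and on the diet at ZT14 included Cyp4a12b, Serpina1e, Hsd3b5, Asns and Gadd45g. Each diet comparison at ZT2 would use the same vehicle array, so for ZT2 only the levels are set beside each other above.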

How the data were processed

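Per the file headers, the deposited non-normalized table held 2 columns for each of 6 Illumina bead arrays, the mean intensity of the beads of a probe and a detection p-value. The lowest intensities of the arrays, 37.7 to 43, lay well above 0, as they would without background subtraction. Their array medians ran from 57.5 to 62.4, which does not tell whether they had been scaled. The authors' processed matrix held linear intensities with negative values among them and 1 median, 3.5, in every column. GenomeStudio is named in the submitters' processing notes without a version or a normalization option. Per the labels' protocols, RNeasy kits were used for RNA. The intensities were background-corrected from the detection p-values, given an offset of 16, quantile normalized over the 6 arrays and taken to log2 (limma 3.58.1, function neqc, under R 4.3.3), a step tested on simulated data. Of 45281 probes, 34885 had 1 symbol in the platform's annotation, 18 several and 10378 none listed, and 34807 matched a gene of the GRCm38.p6 table. The brightest probe over the 6 arrays stood for a gene, which mattered for 3004 genes with several. Of 8866 genes, 222 had clone or predicted-locus names. Detected probes with no single symbol, 2058 of them, were left out. Among these, 5 of those detected on both arrays were at least 2-fold higher and 14 lower.

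On the array with vehicle 32.0% of probes were detected and on that with nobiletin 31.0%, within a range of 28.1% to 32.0% over the 6 arrays. Precision is limited by the number of arrays. A gene counted as 2-fold apart when its difference, or its bound if detected on 1 array, reached 1 on the log2 scale.

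The gene lists, motifs and rules were chosen with earlier results of these data known. Genes were named by rule: the 15 largest differences each way, the 6 largest bounds each way, the 3 members with the largest difference in each list, and every measured core clock gene and output. Others are said to be named afterwards. Alternatives varied the arrays normalized together, the source values, the background correction, the offset, the scaling, the filter and the probe rule.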

Additional observations from a re-analysis of the deposited data

Results flagged for a closer look

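Genes named above that were at least 1.5-fold one way at ZT2 and at least 1.5-fold the other way at ZT14 numbered 4 among those chosen by rule, and whether the times differ was not tested, with 1 array each. Hamp2, a hepcidin gene, lay at 1.55 at ZT2 and -1.59 at ZT14. Cyp4a12b, a fatty acid hydroxylase, lay at -2.19 at ZT2 and 1.20 at ZT14, where it was undetected with vehicle, so the difference was at least 1.07. Ppp1r3g, a glycogen-targeting phosphatase subunit, lay at -1.33 at ZT2 and 1.56 at ZT14, where it was undetected with vehicle. The asparagine synthetase Asns lay at -1.62 at ZT2, where it was undetected with nobiletin and the bound was -1.20, and at 0.80 at ZT14, where it was undetected with vehicle and the bound was 0.62.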

How the results depend on the processing

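The 35 genes at least 2-fold higher became 65 with the authors' processed values, 16 without background correction and 16 with an offset of 50, and the 90 lower genes became 153, 47 and 52. The processed values kept all 35 and all 90, and the 16 and 16 higher and the 47 and 52 lower genes were all among the 35 and the 90. Background subtraction widens the differences of dim genes and an offset narrows them by construction. Over the other 6 alternatives the counts were 32 to 42 higher and 81 to 94 lower, except 77 lower when detection on both arrays was required. No named gene past 2-fold turned in direction. The median of lipid-associated macrophage genes was -0.51 when detection on both arrays was required or no filter was set, and that of fibrosis genes -0.26 without background correction. Of 59 named genes past 2-fold, 20 were under it without background correction and 20 with an offset of 50. Leaving out an array was not possible with 1 a side. No paired analysis was possible because each group has 1 array and the labels give no replicate numbers. Genes near background have only bounds, and the spread between mice was not measured.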

Other observations

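The list of cell division genes, which holds replication and mitosis factors, lay at a median of -0.10 at ZT2. Of its 21 members, 6 were detected on 1 array and 1 was at least 2-fold lower, against 1.02% of all genes. That member, the mitotic activator Cdc20, was detected with vehicle at 5.99 and undetected with nobiletin. At ZT14 the median was -0.60 and 11 of 21 were at least 1.5-fold lower, against 3.41% of all genes. Of 19 iron-handling genes 2 were at least 1.5-fold higher, against 2.27% of all genes, and the median was 0.06. They were Hamp2 and Hmox1, the latter close to background with vehicle.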
